A study of Homo sapiens with 15 samples.

Results

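The 10 genes described here mark epithelial or mesenchymal identity: CDH1, CDH2, EPCAM, VIM, ZEB1, ZEB2, SNAI1, SNAI2, TWIST1 and FN1. They were matched by Ensembl identifier and symbol among the 58381 genes counted by bulk RNA-seq in 5 sublines of VCaP, an established prostate cancer cell line, with 3 libraries each. VCaP-T had received 10 nM testosterone over 7 months, and VCaP-CT was made from it by 10 months with testosterone lowered to 0.1 nM, as a model of androgen deprivation. From VCaP-CT, the androgen receptor antagonist enzalutamide (ENZ, 10 µM until growth returned) gave VCaP-CT-ER, and the older antagonist bicalutamide gave VCaP-CT-BR. Cells insensitive to bicalutamide were then passed to ENZ until resistant, which gave VCaP-CT-BR-ER. All sublines shared RPMI medium with charcoal-stripped serum. The sample labels list 10 nM testosterone for all 5 sublines, the protocol mentions ENZ in the derivation of VCaP-CT-BR, and it names VCaP-CT-ER as VCaP-CT-ET. One derivation per subline is described, so treatment, time in culture and derivation cannot be told apart. The study calls the 3 libraries of a subline biological replicates, and p-values measure only the spread between these libraries, part of which may be technical.

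Epithelial cells hold to each other through E-cadherin, and in epithelial-mesenchymal transition (EMT) they exchange it for N-cadherin, vimentin filaments and a fibronectin matrix. The zinc finger proteins SNAI1, SNAI2, ZEB1 and ZEB2 and the basic helix-loop-helix protein TWIST1 drive this exchange and repress the E-cadherin gene. The miR-200 family works against it by targeting the ZEB1 and ZEB2 messengers, and VCaP is known as a line with epithelial features.

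The mature 3p sequences of the miR-200 family are shown because the host transcript of its chromosome 12 pair was among the regulators measured. They are RefSeq sequences on GRCh38.p14, with the seed (bases 2 to 8) in capitals.
hsa-miR-200b-3p: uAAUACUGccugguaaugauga
hsa-miR-200c-3p: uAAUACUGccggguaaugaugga
hsa-miR-429: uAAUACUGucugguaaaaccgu
hsa-miR-200a-3p: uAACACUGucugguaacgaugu
hsa-miR-141-3p: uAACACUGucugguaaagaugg
MIR200B, MIR200C and MIR429 share the seed AAUACUG, and MIR200A and MIR141 share AACACUG. MIR200C and MIR141 lie inside the host transcript MIR200CHG at chr12:6963246-6964447 (plus strand), and the mature miRNAs themselves were not measured.

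Upstream sequence is shown for FN1, the member that fell by the most in the ENZ step of VCaP-CT. The RefSeq promoter table covers the 146 bases directly before its annotated 5′ end, chr2:215436173-215436318 on the minus strand of GRCh38.p14, with a match to the cAMP response element TGACGTCA in capitals.
FN1 upstream: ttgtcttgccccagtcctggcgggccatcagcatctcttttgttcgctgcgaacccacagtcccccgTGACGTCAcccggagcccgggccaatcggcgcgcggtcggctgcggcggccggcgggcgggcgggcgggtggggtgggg
The window held 74% G and C. The element reads the same on both strands, began 79 bases before the annotated 5′ end, and was found in 148 of 35116 windows of this length in the table (0.421%). The E-box CAGGTG, searched on both strands (CACCTG on the other), was not in this window and was in 11.3% of the windows.

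The members lie apart in the genome. On GRCh38, CDH1 (E-cadherin) spans chr16:68737225-68835548 on the plus strand and EPCAM (an adhesion protein of simple epithelia) chr2:47345158-47387601 on the plus strand. CDH2 (N-cadherin) spans chr18:27950966-28177446 on the minus strand, VIM (vimentin) chr10:17228259-17237593 on the plus strand and FN1 (fibronectin) chr2:215360440-215436172 on the minus strand. Of the transcription factors, ZEB1 spans chr10:31318495-31529814 (plus), ZEB2 chr2:144364364-144524583 (minus), SNAI1 chr20:49982999-49988886 (plus), SNAI2 chr8:48917604-48921740 (minus) and TWIST1 chr7:19020991-19117672 (minus). Values are sums over the exons of each gene.

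Library totals lay between 33665716 and 46935279 counted fragments, and 38661 genes had a count in at least 1 library. By correlation, 15 of 15 libraries were closest to another from the same subline. The luminal prostate markers were detected in all sublines, 10 of 10 passing the filter, with a summed level of 3180 to 11286 TPM (transcripts scaled to a common total, a level per length). Of the marker lists of other cell types, 5 of 10 fibroblast, 3 of 6 endothelial and 1 of 6 leukocyte genes passed the filter. Of these lists, COL1A2, KDR, CD3E and HLA-DRA had no count in any library and PTPRC had at most 2. Others did have counts: LUM reached 9301 in a library, FBLN1 802, VWF 562, COL1A1 309, PECAM1 128, PDGFRB 128 and CD14 36.

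Per length, the 10 members fell into 3 tiers. EPCAM and CDH1 were abundant, with means over all libraries of 264 and 156 TPM, and stood at ranks 385 and 681 of the 38661 genes with a count. SNAI1, SNAI2 and FN1 were near or below 1 TPM on average (0.992, 0.583 and 0.356 TPM). SNAI2 owed its place to VCaP-T, with a mean of 2.61 TPM, and averaged 0.0257 to 0.130 TPM in the other sublines. CDH2, VIM, TWIST1, ZEB2 and ZEB1 averaged 0.0340, 0.0153, 0.00671, 0.00251 and 0.00136 TPM. The summed level of CDH1 and EPCAM was 330 to 671 TPM per library, against 0.0133 to 0.173 TPM for the 5 lowest members together, which had 1 to 16 fragments per library between them.

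**Figure D1:**
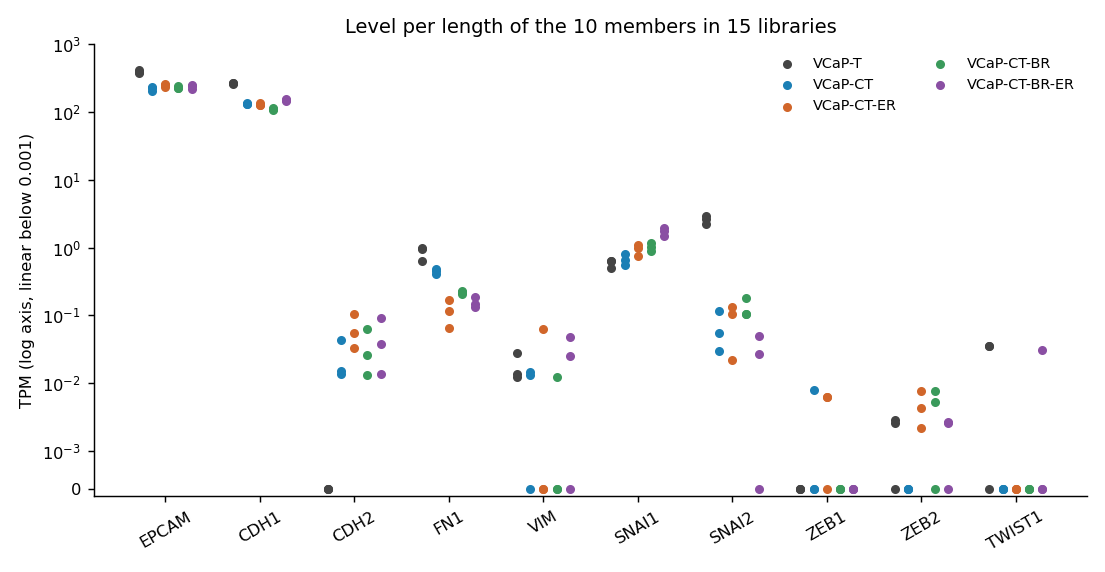
TPM of each member in each of the 15 libraries (points, coloured by subline) on a log axis that is linear below 0.001. EPCAM and CDH1 lie above 100 TPM in every library, SNAI1, SNAI2 and FN1 between 0 and 2.92 TPM, and the other 5 members at no more than 0.104 TPM.

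Of the 10 members, 5 passed the filter on low counts and were tested with edgeR (CDH1, EPCAM, SNAI1, SNAI2 and FN1), and SNAI2 passed it only through VCaP-T, where it was high. SNAI2 is therefore described by its counts and left out of the counts of members called, which cover the other 4. Levels of a gene are given below as CPM (counts relative to library size, TMM scaled), as mean ± SD with n = 3 libraries per subline, and changes as log2 fold change ± SE with Benjamini-Hochberg adjusted p over the 19621 genes tested. In bulk RNA, fewer cells of a type and less RNA per cell cannot be told apart. Comparisons with a common reference, VCaP-T or VCaP-CT, share its libraries, and their values are given side by side.

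In the first step, from VCaP-T to VCaP-CT, 3 of the 4 members so counted fell and 0 rose, where 65.3% of all genes tested changed, 33.1% upwards and 32.2% downwards. The epithelial genes CDH1 and EPCAM and the mesenchymal gene FN1 were lower together. None of them changed by at least 2-fold (0 members, against 20.8% of all genes).

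CDH1, the E-cadherin of adherens junctions, had 613, 617 and 598 CPM in the VCaP-T libraries and 328, 330 and 327 CPM in those of VCaP-CT. The sublines did not overlap. The mean went from 609 ± 10.1 to 328 ± 1.65 CPM, 1.86-fold lower (log2 fold change -0.89 ± 0.045, edgeR adjusted p = 2.94e-13). EPCAM had 377, 390 and 347 CPM before the step and 234, 203 and 236 CPM after it. It too was lower in every VCaP-CT library, by 1.66-fold (log2 fold change -0.73 ± 0.063, edgeR adjusted p = 1.83e-09). The 10 luminal markers summed to 11008 to 11286 TPM per VCaP-T library and 4817 to 5290 TPM per VCaP-CT library, and their part in these falls was not tested.

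SNAI2, the repressor also known as Slug, was high in VCaP-T alone. Its counts were 78, 101 and 104 in VCaP-T and 1, 4 and 2 in VCaP-CT. The summed counts gave a ratio of 36.7 after library scaling (exact 95% interval 17.6 to 92.1, counting error only). The VCaP-T counts that set this ratio also carried SNAI2 past the filter, so it is given without a test. FN1 had 4.24, 6.15 and 6.19 CPM before the step and 3.35, 2.82 and 3.19 CPM after it, again without overlap (1.78-fold lower, log2 fold change -0.83 ± 0.18, edgeR adjusted p = 0.000316). SNAI1, the related repressor Snail, had 13 to 15 counts per library in VCaP-T and 13 to 20 in VCaP-CT, and the change did not pass the test (log2 0.30 ± 0.29, edgeR adjusted p = 0.368).

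**Figure D2:**
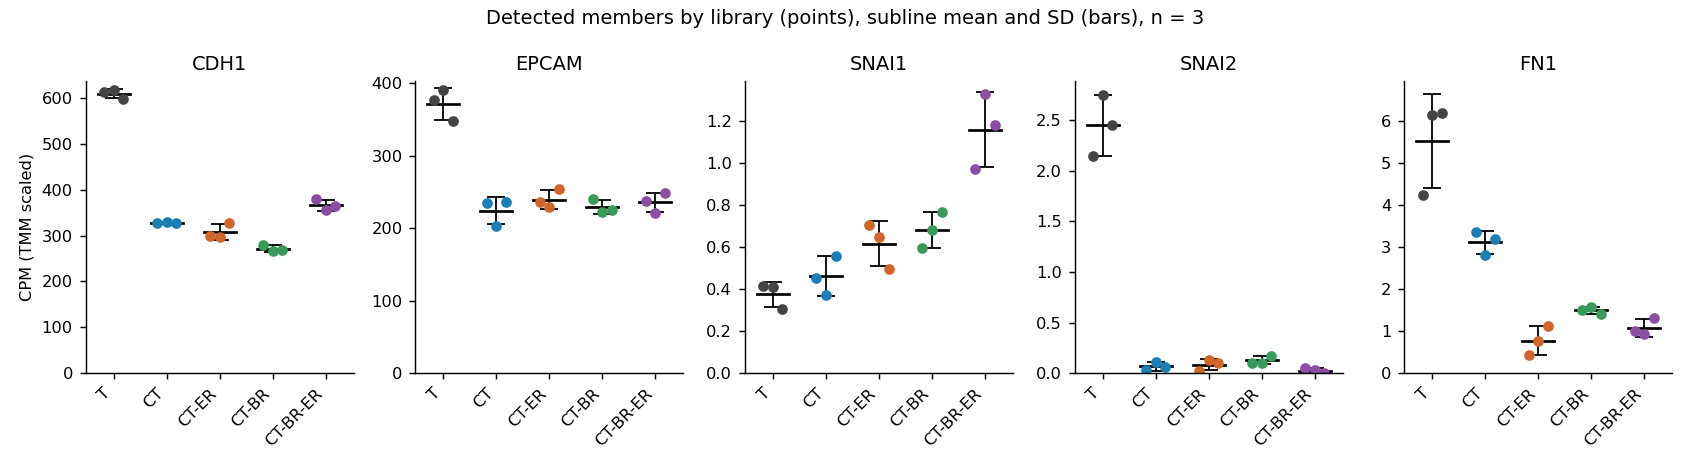
TMM scaled CPM of the 5 tested members in each library (points), with the mean and SD of each subline (bars, n = 3), axes starting at 0 and scaled per gene. CDH1 and EPCAM are highest in VCaP-T, SNAI1 in VCaP-CT-BR-ER (1.16 CPM), SNAI2 is near 0 outside VCaP-T, and FN1 is lowest in VCaP-CT-ER (0.775 CPM).

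In the ENZ step from VCaP-CT to VCaP-CT-ER, FN1 was the member that changed: 1 of the 4 fell and 0 rose, where 60.9% of all genes changed (29.6% rose and 31.2% fell). By at least 2-fold, 1 member changed, against 17.5% of all genes. FN1 had 111, 99 and 114 counts in VCaP-CT and 21, 37 and 45 in VCaP-CT-ER. The CPM went from 3.12 ± 0.272 to 0.775 ± 0.341, 4.09-fold lower and without overlap (log2 fold change -2.03 ± 0.23, edgeR adjusted p = 1.19e-07). Of the genes tested, 3.22% had a lower log2 change than FN1.

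The epithelial genes moved little in that step. CDH1 had 299, 298 and 327 CPM in VCaP-CT-ER, with the highest of them and the lowest VCaP-CT library both at 327 CPM, and the change of -0.09 ± 0.045 on the log2 scale did not pass the test (edgeR adjusted p = 0.0823). It passed with 75th percentile scaling (adjusted p = 0.0391) and without replicate 3 of VCaP-CT-ER (log2 -0.12, adjusted p = 0.0352), which made 2 members called. EPCAM had 236, 229 and 253 CPM, overlapping VCaP-CT (log2 0.09 ± 0.063, edgeR adjusted p = 0.204). SNAI1 had 34, 31 and 20 counts in VCaP-CT-ER against 15, 13 and 20 in VCaP-CT, and did not pass (edgeR adjusted p = 0.158). SNAI2 had 1, 6 and 4 counts against 1, 4 and 2, few for a test.

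In the bicalutamide step from VCaP-CT to VCaP-CT-BR, 2 of the 4 members fell and 0 rose, where 53.2% of all genes changed (26.1% rose and 27% fell). By at least 2-fold, 1 member changed, against 9.96% of all genes. CDH1 had 279, 266 and 270 CPM in VCaP-CT-BR, below every VCaP-CT and VCaP-CT-ER library (against VCaP-CT log2 -0.27 ± 0.045, edgeR adjusted p = 3.22e-05). FN1 had 58, 60 and 57 counts, or 1.495 ± 0.0788 CPM, 2.08-fold below VCaP-CT (log2 -1.06 ± 0.21, edgeR adjusted p = 0.00022). Its libraries were tightly spaced and lay between those of VCaP-CT and VCaP-CT-ER.

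EPCAM was at 229 ± 9.99 CPM in VCaP-CT-BR, with a log2 difference from VCaP-CT of 0.03 ± 0.063 (edgeR adjusted p = 0.688). SNAI1 had 23, 26 and 31 counts, above each of the VCaP-CT libraries, and did not pass (log2 0.56 ± 0.26, edgeR adjusted p = 0.0735). SNAI2 had 4, 4 and 7 counts, overlapping VCaP-CT and few for a test.

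In the second ENZ step, which took VCaP-CT-BR into VCaP-CT-BR-ER, CDH1 and SNAI1 rose, 2 of the 4 members where 42.9% of all genes changed (21.2% rose and 21.7% fell). By at least 2-fold 0 members changed, against 7.98% of all genes. CDH1 had 379, 355 and 365 CPM in VCaP-CT-BR-ER, 1.35-fold above VCaP-CT-BR (log2 0.43 ± 0.045, edgeR adjusted p = 1.12e-07). It was then above VCaP-CT as well (log2 0.16 ± 0.045, edgeR adjusted p = 0.00556), where 52.5% of all genes differed (26.2% higher and 26.4% lower), and remained below VCaP-T in each library.

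SNAI1 had 40, 49 and 45 counts in VCaP-CT-BR-ER, the most of any subline and without overlap with the others. Its CPM of 1.16 ± 0.179 was 1.69-fold above the 0.682 ± 0.0861 CPM of VCaP-CT-BR (log2 0.76 ± 0.22, edgeR adjusted p = 0.00716). SNAI1 and CDH1 were both higher after this step. Against VCaP-CT, SNAI1 was also higher (log2 1.32 ± 0.24, edgeR adjusted p = 7.84e-05) and FN1 lower (log2 -1.53 ± 0.22, edgeR adjusted p = 5.41e-06), and these 2 passed 2-fold, against 12.5% of all genes.

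SNAI2 had 2, 1 and 0 counts in VCaP-CT-BR-ER. Over the group, 15 counts in VCaP-CT-BR stood against 3, few for a test. FN1 had 41, 34 and 50 counts, fewer than each VCaP-CT-BR library, and did not pass (log2 -0.47 ± 0.24, edgeR adjusted p = 0.127); fitted on the compared sublines only, it passed (adjusted p = 0.045). EPCAM stayed within 221 to 248 CPM (log2 0.04 ± 0.063, edgeR adjusted p = 0.664).

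**Figure D3:**
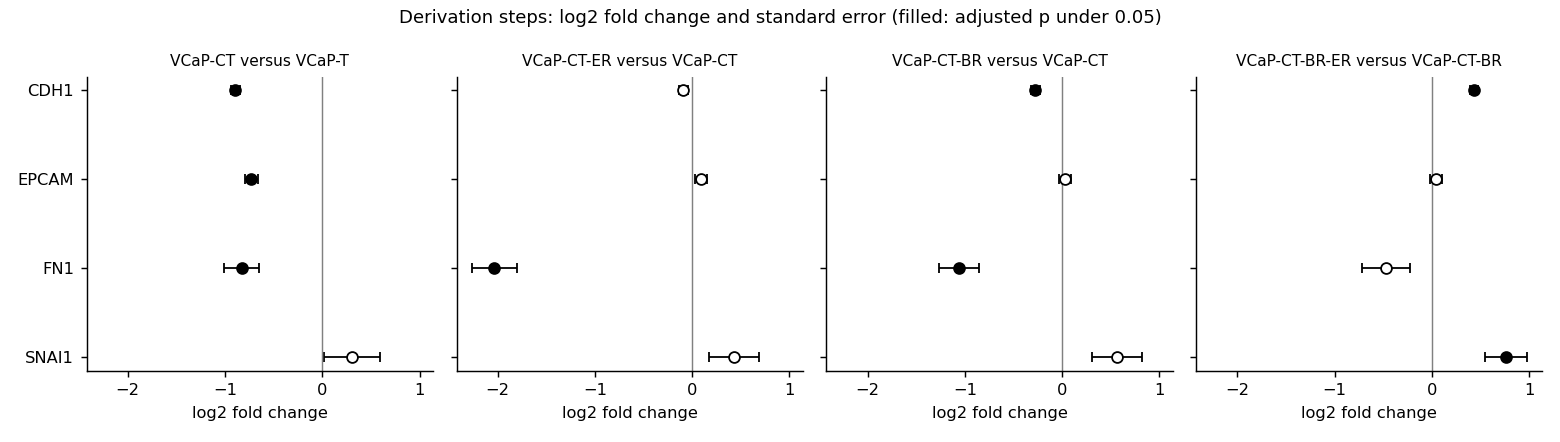
Log2 fold change with its standard error (x axis) for CDH1, EPCAM, FN1 and SNAI1 in the 4 derivation steps, filled where the edgeR adjusted p was under 0.05. Filled points are to the left of 0 for CDH1, EPCAM and FN1 in the first step, for FN1 in the ENZ step of VCaP-CT and for CDH1 and FN1 in the bicalutamide step, and in the second ENZ step CDH1 (0.43) and SNAI1 (0.76) are to the right.

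The ENZ step differed between its starting points, VCaP-CT and VCaP-CT-BR, for 2 of the 4 members, where 49.7% of all genes did. Both values were higher from VCaP-CT-BR, as for 25.2% of all genes, and 24.5% were lower. FN1 alone of the members differed by at least 2-fold, against 15.8% of all genes. For CDH1 the log2 change was -0.09 from VCaP-CT and 0.43 from VCaP-CT-BR, a difference of 0.52 ± 0.064 (edgeR interaction, adjusted p = 7.58e-07). For FN1 the changes were -2.03 and -0.47, a difference of 1.56 ± 0.34 (edgeR interaction, adjusted p = 0.000681). SNAI1 and EPCAM showed differences of 0.33 ± 0.34 and -0.06 ± 0.089, which did not pass (edgeR adjusted p = 0.443 and 0.633). SNAI2 had few counts in the sublines of both ENZ steps and was left out here.

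Set against VCaP-T, the 3 antagonist-resistant sublines had the same pattern: CDH1, EPCAM and FN1 fell and SNAI1 rose in each. VCaP-CT, from which all 3 derive, was already below VCaP-T in CDH1, EPCAM and FN1 (log2 -0.89, -0.73 and -0.83). Of the 4 members, 1 rose and 3 fell in VCaP-CT-ER, where 69% of all genes differed (34.3% higher, 34.7% lower). The same count held in VCaP-CT-BR, where 71.2% differed (35.9% higher, 35.3% lower), and for VCaP-CT-BR-ER, where 70.2% differed (34.9% higher, 35.3% lower). By at least 2-fold, 1, 2 and 2 members differed in the same order, against 25.4%, 27.5% and 27.1% of all genes. CDH1 was 1.98-fold, 2.24-fold and 1.66-fold below VCaP-T, in that order, and FN1 7.27-fold, 3.70-fold and 5.14-fold. EPCAM fell by 0.63, 0.69 and 0.66 on the log2 scale, and the highest edgeR adjusted p of these 3 genes was 1.71e-08. The log2 change of SNAI1 was 1.62 ± 0.24 in VCaP-CT-BR-ER (edgeR adjusted p = 4.18e-06). It was 0.87 ± 0.26 for VCaP-CT-BR (edgeR adjusted p = 0.00592), and VCaP-CT-ER had 0.73 ± 0.26 (edgeR adjusted p = 0.0174). The call in VCaP-CT-ER did not hold with DESeq2 (adjusted p = 0.052), without replicate 3 of VCaP-T (0.0875) or without replicate 1 of VCaP-CT-ER (0.07). The counts of SNAI2 in VCaP-T were above those of VCaP-CT-ER by a ratio of 29.5 (exact 95% interval 16.3 to 59.8), of VCaP-CT-BR by 19.0 (11.4 to 34.5) and of VCaP-CT-BR-ER by 94.8 (32.1 to 463).

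The order of the levels differed between members. CDH1 ran from VCaP-T through VCaP-CT-BR-ER, VCaP-CT and VCaP-CT-ER to VCaP-CT-BR, and of neighbours in this order VCaP-CT and VCaP-CT-ER did not differ by the test. EPCAM was highest in VCaP-T, and among the other sublines, at 224 to 239 CPM, no neighbours differed (edgeR adjusted p from 0.664 to 0.795). FN1 ran from VCaP-T through VCaP-CT, then VCaP-CT-BR, then VCaP-CT-BR-ER, to VCaP-CT-ER, and the last 3 were not separated as neighbours (adjusted p = 0.127 and 0.136), although VCaP-CT-BR was above VCaP-CT-ER (log2 0.97 ± 0.25, edgeR adjusted p = 0.00247), where 55.9% of all genes differed (28.8% higher, 27.1% lower). CDH1 was the other member that differed there, lower in VCaP-CT-BR (log2 -0.18 ± 0.045, edgeR adjusted p = 0.0018), and neither passed 2-fold, against 14.1% of all genes.

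SNAI1 ran in the opposite sense, from VCaP-T as the lowest through VCaP-CT, then VCaP-CT-ER, then VCaP-CT-BR, up to VCaP-CT-BR-ER, and of neighbours only the last pair differed. Across the ENZ-resistant endpoints, VCaP-CT-BR-ER against VCaP-CT-ER, 2 of the 4 members differed, CDH1 (log2 0.25 ± 0.045, edgeR adjusted p = 0.000101) and SNAI1 (log2 0.89 ± 0.21, edgeR adjusted p = 0.00166), each higher in VCaP-CT-BR-ER, where 45.9% of all genes differed (23.3% higher, 22.7% lower). Neither did so by 2-fold, against 9.74% of all genes. For FN1 this difference was 0.50 ± 0.27 (edgeR adjusted p = 0.136), and it was 0.82 without replicate 3 of VCaP-CT-ER (adjusted p = 0.0213). SNAI2 had 1, 6 and 4 counts in VCaP-CT-ER and 2, 1 and 0 in VCaP-CT-BR-ER, few for a test.

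The other 5 members stayed near 0 in every library. A library of this depth places 3 counts at 0.0639 to 0.0891 CPM, and lower levels cannot be told from 0. ZEB1 had 1 fragment in 3 of 15 libraries (replicate 3 of VCaP-CT and replicates 1 and 2 of VCaP-CT-ER) and none in the others. TWIST1 likewise had 1 fragment in 3 libraries, replicates 1 and 2 of VCaP-T and replicate 1 of VCaP-CT-BR-ER. Neither factor reached the floor of 3 counts in any library.

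ZEB2 had no count in VCaP-CT. VCaP-CT-ER had 2, 1 and 3 counts, VCaP-CT-BR 2, 0 and 3, and VCaP-T 0, 1 and 1, as did VCaP-CT-BR-ER. VIM counts were 1, 2 and 1 in VCaP-T and 1, 0 and 1 in VCaP-CT. After the antagonists they were 4, 0 and 2 in VCaP-CT-BR-ER, 0, 0 and 5 in VCaP-CT-ER, and 0, 0 and 1 in VCaP-CT-BR. The sublines overlapped, except ZEB2 between VCaP-CT and VCaP-CT-ER, and no difference was detectable at this depth (lowest edgeR adjusted p without a filter 0.113, for ZEB2 in the ENZ step of VCaP-CT).

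CDH2 was singled out among the 5 low members after their counts were seen. It had no count in the 3 VCaP-T libraries and 1, 3 and 1 in those of VCaP-CT. VCaP-CT-ER had 3, 5 and 8 counts, VCaP-CT-BR-ER 3, 1 and 7, and VCaP-CT-BR 2, 1 and 5. All 12 libraries of the other sublines held a fragment, several of them below the floor of 3 counts. The absence in VCaP-T allows up to 0.0318 CPM over the group (upper end of the exact Poisson 95% interval). With the counting error of both groups, the lower exact 95% limit of the ratio to VCaP-T was 3.36 for VCaP-CT-ER, 2.496 for VCaP-CT-BR-ER, 1.69 for VCaP-CT-BR and 1.01 for VCaP-CT. These limits cover counting error only. CDH2 did not pass the filter and is given without a test, and its level was at most 0.104 TPM.

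**Figure D4:**
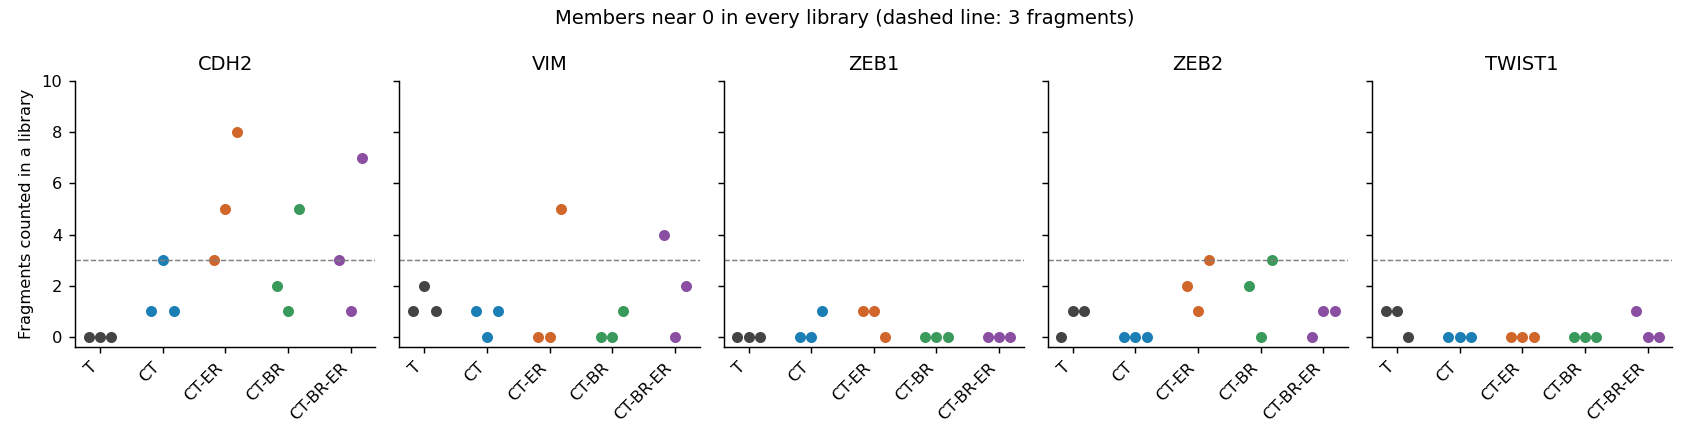
Fragments counted in each library for the 5 members near 0, by subline, on a linear axis with a dashed line at 3 fragments. CDH2 is at 0 in the 3 VCaP-T libraries and reaches 8 in VCaP-CT-ER, and the other 4 reach at most 5.

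Fragments were assigned without regard to strand, so those in exons shared with an opposite gene were not told apart. VIM shares 12.4% of its exon bases with VIM-AS1, TWIST1 6.94% with an antisense gene, CDH1 5.62%, ZEB2 4.99% with ZEB2-AS1, ZEB1 4.23% with ZEB1-AS1 and CDH2 2.75%. EPCAM, SNAI1, SNAI2 and FN1 share none. These partners had at most 2 counts in a library with the exception of ZEB1-AS1, the divergent transcript named here after its values were seen, with 19 to 126. Its mean was 2.27 ± 0.322 CPM for VCaP-CT-ER and 1.47 ± 0.0771 for VCaP-CT-BR-ER, against 0.998 (VCaP-T), 0.876 (VCaP-CT) and 0.695 CPM (VCaP-CT-BR), while ZEB1 itself had at most 1 count.

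Among the members, log2 CPM over the 15 libraries ran together for CDH1 and EPCAM (r = 0.916) and for EPCAM and SNAI2 (r = 0.889), and in opposite directions for SNAI1 and FN1 (r = -0.719). CDH1 and SNAI1 had r = -0.445. These are descriptions over 5 sublines of 3 libraries, and the points share libraries and scaling. Values of r for SNAI2, here and below, mainly set VCaP-T, with 78 to 104 counts per library, against sublines with at most 7. The genes closest to CDH1 in this measure were the kinase NEK6 (r = 0.990) and the fatty acid desaturase SCD (r = 0.989), to EPCAM the Golgi protein GOLGA5 (0.991) and TMEM263 (0.985), to SNAI2 ERBIN (0.978) and PPM1E (0.975), and to FN1 the BMP receptor BMPR1B (0.973) and the ETS factor ETV6 (0.966). For SNAI1 they were ENSG00000254719 (0.937) and WDR41 (0.934).

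Copy number was not measured, so the tested genes within 5 Mb of each member were set beside it. In the first step the 133 tested genes around CDH1 had a median log2 change of -0.19 against -0.89 for CDH1. The 49 around EPCAM had a median of -0.26 against -0.73. The quartiles of the neighbours in that step were -0.56 and 0.25 for CDH1, -0.74 and 0.38 for EPCAM, and -0.08 and 0.85 for FN1. The 74 genes around FN1 had a median of 0.37 in the first step and -0.12 in the ENZ step of VCaP-CT, where FN1 fell by 0.83 and by 2.03 on the log2 scale. The medians over all genes tested were 0.03 and -0.02. Around SNAI1, the 86 tested genes had a median of -0.06 in the second ENZ step, against 0.76 for SNAI1. In the bicalutamide step the median around CDH1 was -0.23, close to the -0.27 of CDH1 itself, and it was 0.07 against 0.43 in the second ENZ step. For the difference between the ENZ steps it was 0.33 against 0.52 for CDH1, with 0.01 over all genes. Around FN1 the medians were -0.28 against -1.06 in the bicalutamide step and 0.33 against 1.56 for the difference between the ENZ steps. The part of the neighbourhood in the changes of CDH1, EPCAM, FN1 and SNAI1 was not tested.

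Genes of junctions, which hold epithelial sheets together with E-cadherin, were read from a list of 22, all tested. In the first step 7 rose and 11 fell (81.8%, median log2 change -0.26, against 65.3% and 0.03 over all genes). In the ENZ step of VCaP-CT 4 rose and 10 fell (63.6% against 60.9% of all genes, median -0.29), and in the bicalutamide step 5 rose and 9 fell (63.6% against 53.2%, median -0.09), with medians over all genes of -0.02. In the second ENZ step 12 rose and 1 fell (59.1%, median 0.21, against 42.9% and 0.00 over all genes). The gene that fell was CTNNA1 (log2 -0.12 ± 0.039, edgeR adjusted p = 0.0157), and its adjusted p was 0.131 without a filter and 0.0519 to 0.0633 without any 1 library of either subline. The ENZ step differed between its starting points for 15 of the 22 genes (68.2%, against 49.7% of all genes), with the more positive change from VCaP-CT-BR for 14.

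The desmosomal cadherin DSC2 averaged 145 ± 10.5 CPM in VCaP-CT and 67.1 ± 3.23 in VCaP-CT-ER. The other means were 179.9 ± 2.51 CPM (VCaP-CT-BR-ER), 162 ± 5.71 (VCaP-CT-BR) and 87.1 ± 2.81 CPM (VCaP-T). It was lower in VCaP-CT-ER than in VCaP-CT (log2 -1.11 ± 0.055, edgeR adjusted p = 2.22e-13). CTNNA1, the alpha-catenin that ties E-cadherin to actin, was at 558 ± 4.08 CPM in VCaP-CT and 284 ± 8.42 in VCaP-CT-ER (log2 -0.97 ± 0.04, edgeR adjusted p = 9.53e-15). It stood at 495 to 552 CPM in the mean of the remaining sublines. DSG2, a second desmosomal cadherin, rose in the first step (log2 0.97 ± 0.059, edgeR adjusted p = 5.83e-12), and the polarity gene LLGL2 fell (log2 -1.21 ± 0.12, edgeR adjusted p = 1.3e-08). CTNNA1 shares 5.04% of its exon bases with LRRTM2 and DSG2 2.76% with DSG2-AS1, both on the opposite strand.

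Of 20 regulators and effectors of epithelial identity, all tested, 5 rose and 10 fell in the first step, 8 rose and 11 fell in the ENZ step of VCaP-CT, 5 rose and 8 fell under bicalutamide, and 6 rose and 6 fell in the second ENZ step. The medians were -0.14, -0.38, -0.13 and 0.00. Of the list 75%, 95%, 65% and 60% changed in the 4 steps, against 65.3%, 60.9%, 53.2% and 42.9% of all genes. KLF4, a factor of differentiated epithelia, went from 151 ± 7.53 CPM to 13.9 ± 0.934 in the first step, 10.9-fold lower (log2 -3.45 ± 0.081, edgeR adjusted p = 8.46e-19). It rose in both ENZ steps (log2 1.14 ± 0.081 and 0.88 ± 0.084, edgeR adjusted p = 9.71e-11 and 2.75e-08) and stayed below VCaP-T in the mean of each subline. The small GTPase RAB25 was at 39.2 ± 1.08 CPM in VCaP-CT and 10.9 ± 0.54 in VCaP-CT-ER (log2 -1.85 ± 0.064, edgeR adjusted p = 6.36e-16), against 32.9 to 42.3 CPM in the mean of the other sublines.

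The prostate epithelial factor SPDEF fell in the ENZ step of VCaP-CT (log2 -1.17 ± 0.11, edgeR adjusted p = 1.39e-08) and in the bicalutamide step (log2 -1.03 ± 0.11, edgeR adjusted p = 1.73e-07). MIR200CHG, the host of miR-200c and miR-141 whose seeds are printed above, averaged 2.07 ± 0.402 CPM (VCaP-T) and 1.999 ± 0.355 CPM (VCaP-CT) before the antagonists. After them it was at 5.70 ± 0.728 CPM (VCaP-CT-ER), 3.61 ± 0.281 (VCaP-CT-BR) and 3.35 ± 0.278 CPM (VCaP-CT-BR-ER). It rose in the ENZ step of VCaP-CT (log2 1.52 ± 0.15, edgeR adjusted p = 1.42e-08) and in the bicalutamide step (log2 0.85 ± 0.16, edgeR adjusted p = 0.000115). ZEB1 and ZEB2, which miR-200 targets, had at most 1 and 3 counts in any library.

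Of 28 genes of the mesenchymal matrix and cytoskeleton, 19 were tested, and the other 9 had at most 21 counts in a library. Of those tested, 8 rose and 8 fell in the first step, 5 rose and 12 fell in the ENZ step of VCaP-CT, 4 rose and 8 fell under bicalutamide, and 8 rose and 5 fell in the second ENZ step. The medians were -0.09, -0.70, -0.54 and 0.38. The shares changed were 84.2%, 89.5%, 63.2% and 68.4%, beside 65.3%, 60.9%, 53.2% and 42.9% over all genes. The count in the second ENZ step, 13, was 8 without replicate 2 of VCaP-CT-BR-ER.

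LUM, the matrix proteoglycan lumican, rose in all 4 steps, with means of 0.757 ± 0.363 CPM for VCaP-T, 6.24 ± 1.21 for VCaP-CT and 23.5 ± 0.363 for VCaP-CT-BR. The ENZ-resistant sublines had 196 ± 17.0 CPM (VCaP-CT-ER) and 236 ± 17.8 CPM (VCaP-CT-BR-ER). The ENZ steps were log2 4.97 ± 0.12 and 3.33 ± 0.1 (edgeR adjusted p = 1.2e-18 and 2.98e-16). The collagen gene COL5A2 rose in the first step and in the second ENZ step (log2 3.63 ± 0.11 and 1.82 ± 0.078, edgeR adjusted p = 8.65e-17 and 7.99e-14). FBN1 (fibrillin) and the hyaluronan receptor CD44 fell in the ENZ step of VCaP-CT, as did FN1, by 3.02 and 2.20 on the log2 scale (edgeR adjusted p = 7.88e-13 and 3.57e-17). The mean of COL5A2 went from 13.1 to 3.25 CPM in that step. In the first step, where FN1 fell, the mean of FBN1 went up from 6.81 to 12.7 CPM and that of CD44 from 10.4 to 31.0 CPM.

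LUM is also a fibroblast marker. The summed level of 10 fibroblast markers was 164 to 191 TPM in VCaP-CT-ER and 186 to 209 in VCaP-CT-BR-ER, and LUM alone reached 206 TPM. It was 21.5 to 22.2 TPM for VCaP-CT-BR, 9.26 to 9.95 for VCaP-CT and 5.46 to 6.21 for VCaP-T. Of the rest of the list, FBLN1 had 175 to 802 counts per library, COL1A1 16 to 309, PDGFRB 16 to 128 and DCN 0 to 22. COL1A2 had no count in any library, and COL3A1, PDGFRA, FAP and THY1 had at most 7, 5, 3 and 2 counts. The endothelial and leukocyte lists summed to at most 4.84 and 1.30 TPM. The part of other cells in the level of LUM was not tested.

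Of 12 other transcription factors of EMT, 7 were tested, and 5 had at most 5 counts in a library. In the first step 5 rose and 2 fell, in the ENZ step of VCaP-CT 1 rose and 4 fell, under bicalutamide 1 rose and 3 fell, and in the second ENZ step 2 rose and 1 fell. These were 100%, 71.4%, 57.1% and 42.9% of the 7, where 65.3%, 60.9%, 53.2% and 42.9% of all genes changed. The count of 5 in the ENZ step of VCaP-CT was 3 without replicate 1 or 2 of VCaP-CT or without replicate 2 or 3 of VCaP-CT-ER. KLF8, a repressor of CDH1, had 5, 3 and 2 counts in VCaP-T and 157, 150 and 187 in VCaP-CT (log2 5.73 ± 0.27, edgeR adjusted p = 9.83e-14). It had 101 to 247 counts in the later libraries. SOX9 fell in the first step and under bicalutamide (log2 -0.57 ± 0.057 and -1.47 ± 0.061, edgeR adjusted p = 1.95e-08 and 8.08e-14) and rose in the second ENZ step (log2 0.71 ± 0.062, edgeR adjusted p = 7.1e-09).

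Of 22 genes of TGF-beta and BMP signalling, an upstream pathway of EMT, all were tested. In the 4 steps 9, 9, 11 and 2 rose and 7, 4, 4 and 8 fell, with medians of 0.03, 0.11, 0.22 and -0.03. The shares changed, 72.7%, 59.1%, 68.2% and 45.5%, stood beside 65.3%, 60.9%, 53.2% and 42.9% over all genes. The BMP and TGF-beta target genes ID1 and ID3, inhibitors of basic helix-loop-helix factors, had the 2 largest rises of the list in the ENZ step of VCaP-CT. ID1 had 2.63, 1.91 and 1.93 CPM in VCaP-CT, 127, 101 and 106 in VCaP-CT-ER, and 46.5, 58.1 and 53.1 in VCaP-CT-BR. It rose from VCaP-CT to VCaP-CT-ER by log2 5.70 ± 0.22 and to VCaP-CT-BR by 4.61 ± 0.22 (edgeR adjusted p = 3.78e-15 and 6.9e-13).

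ID3 rose by 4.10 ± 0.18 and 3.12 ± 0.17 on the log2 scale in the same steps (edgeR adjusted p = 2.07e-14 and 6.16e-12). Both had fallen in the first step (log2 -1.77 ± 0.26 and -1.89 ± 0.17, edgeR adjusted p = 3.87e-06 and 5.23e-09). The ligand gene TGFB2 averaged 8.22 ± 0.694 CPM for VCaP-T, 3.03 ± 0.233 for VCaP-CT and 0.965 ± 0.117 for VCaP-CT-ER. It was at 16.4 ± 0.601 CPM after bicalutamide and at 3.29 ± 0.399 CPM after the second ENZ step. It fell in both ENZ steps (log2 -1.64 ± 0.14 and -2.31 ± 0.099, edgeR adjusted p = 2.38e-09 and 7.82e-14), and it contains the small transcript TGFB2-OT1, which shares 26.6% of its exon bases and had no count.

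**Figure D5:**
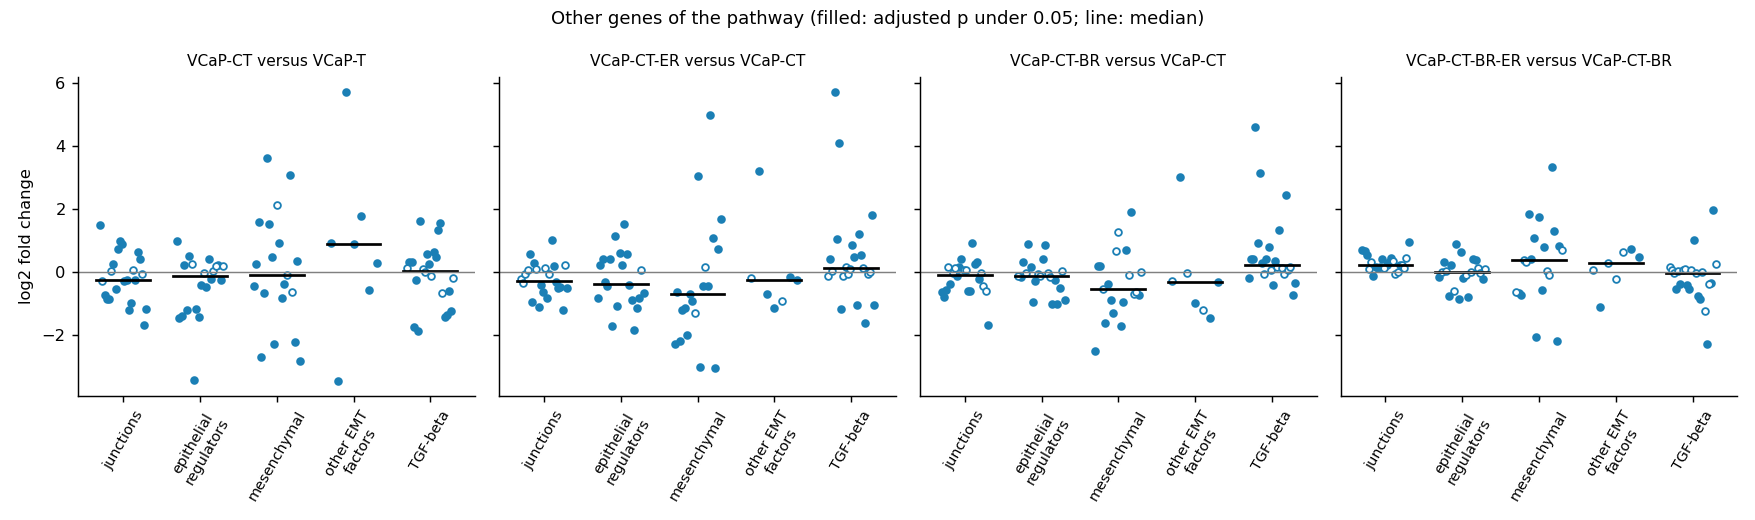
Log2 fold change of the tested genes of 5 lists (points, filled where the edgeR adjusted p was under 0.05) in the 4 derivation steps, with the list median as a line. The junction median is below 0 in 3 steps and at 0.21 in the second ENZ step, and each list holds genes above and below 0 in every step.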

How the data were processed

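RNA was sequenced on an Illumina HiSeq from 15 libraries, 3 per subline; the study calls them biological replicates. Alignment to GRCh38 used STAR 2.5.4b, and the authors deposited raw fragment counts per gene from featureCounts 1.6.2, run on pairs with no strand setting on GENCODE release 28. Symbols came from GENCODE by identifier (98.9% matched).

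The members and lists were chosen with earlier results of these data known. Genes were kept by filterByExpr at a minimum count of 10. edgeR 4.0.16 in R 4.3.3 was fitted to all 15 libraries with TMM factors and a term per subline, and quasi-likelihood F tests were Benjamini-Hochberg adjusted within each comparison, at 0.05. The script was tested on simulated data. The SE is the size of the log2 fold change divided by the square root of F. TPM used the deposited exon lengths. Likeness is Pearson's r of log2 CPM (prior count 2). Ratios of summed counts have exact binomial 95% intervals. With no molecular identifiers described, intervals and floors cover counting error only, and 3 counts were the floor.

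Named genes were the 10 members, up to 2 rising and 2 falling most per list and step among those that passed with average log2 CPM not under 1 (fewer are named), and the 2 genes most like each member. Alternatives were RLE and 75th percentile factors, DESeq2 1.42.0, no filter, at least 10 counts in every library, only the compared sublines, the replicate block and leaving out each library. Python 3.11.15 with pandas 2.3.3 and scipy 1.17.1 and matplotlib 3.10.9 served tables and figures.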

Additional observations from a re-analysis of the deposited data

Results flagged for a closer look

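The ENZ step changed genes to a different degree from VCaP-CT and from VCaP-CT-BR, by the edgeR interaction test at an adjusted p of 0.05. Of all genes tested, 49.7% passed this test. The genes of the lists below were named for their large changes in the steps. Their values are therefore a description, and their passing is not a separate result. The values are the log2 change of the ENZ step that began at VCaP-CT-BR minus that of the step that began at VCaP-CT. Of the members, CDH1 (0.52) and FN1 (1.56) differed. Among junction genes the values were 1.26 for DSC2, 0.85 for CTNNA1, 0.82 for DSG2 and 0.52 for LLGL2, and among epithelial regulators 2.21 for RAB25, 1.27 for SPDEF and -1.62 for MIR200CHG. Among mesenchymal genes they were 3.84 for COL5A2, 2.43 for FBN1, 1.44 for CD44 and -1.64 for LUM, and among the other EMT factors 1.00 for KLF8 and 0.88 for SOX9. In TGF-beta and BMP signalling they were -6.24 for ID1, -4.50 for ID3 and -0.67 for TGFB2. KLF4, at -0.26, did not pass (edgeR adjusted p = 0.0736). Groups of 3 libraries were too small to be searched for a library far from the others.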

How the results depend on the processing

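Counts of members called, here over the 5 tested members with SNAI2 included, moved by over 1.5 times in 1 comparison. In the ENZ step of VCaP-CT the count was 2 in place of 1 with 75th percentile scaling, and 1 to 2 over the libraries left out. The added member was CDH1. With at least 10 counts required in every library, the other EMT factors called were 4 in the first step, 3 in the ENZ step of VCaP-CT and 3 for the difference between the ENZ steps, since fewer genes were tested. With libraries left out these factors were 3 to 6 in the ENZ step of VCaP-CT, and the mesenchymal genes 8 to 12 in the second ENZ step (13 with all libraries). The remaining 643 values for counts of calls kept within 1.5 times. Direction turned only for members that had not passed the test. With 75th percentile scaling EPCAM from VCaP-CT to VCaP-CT-BR was -0.00886. Over the libraries left out it was -0.0237 to 0.0791 there (below 0 without VCaP-CT replicate 2 or VCaP-CT-BR replicate 1), and -0.0689 to 0.0189 between the ENZ-resistant endpoints (above 0 without VCaP-CT-ER replicate 3 or VCaP-CT-BR-ER replicate 2). SNAI1 between VCaP-CT-ER and VCaP-CT-BR was -0.00388 (without VCaP-CT-ER replicate 3) to 0.22. SNAI2 in the ENZ step of VCaP-CT, with few counts in each library, was -0.23 (without VCaP-CT-ER replicate 2) to 0.85. It was below 0 also without VCaP-CT replicate 1. The cause was not tested. Depth limits SNAI2 outside VCaP-T and the 5 members near 0.

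The replicate numbers of the labels were also fitted as a block. The calls of CDH1, EPCAM, FN1 and SNAI1 in the 4 steps were then the same as without the block. Over all genes, those called in the first step were 12727 against 12821. Same-numbered libraries had a mean correlation of -0.00548 between sublines (from -0.474 to 0.468), and others 0.00282. By pair of sublines the same-numbered mean was below 0 for every pair with VCaP-T, from -0.256 (with VCaP-CT) to -0.0953 (with VCaP-CT-BR). Among the other sublines it reached 0.254 (VCaP-CT-ER and VCaP-CT). Only the pair of VCaP-CT-BR and VCaP-CT-ER was below 0 there (-0.138). The numbers thus gave no pairing common to all sublines, and a pairing among the sublines other than VCaP-T was not tested.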
